A study of Mus musculus with 5 samples.

Results

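The POU domain transcription factors of mouse neuroepithelial cells (NECs) were described from RNA sequencing of 5 libraries. NECs line the young neural tube, divide there and give rise to radial glia and, through them, to neurons. The 9 genes were taken by symbol, namely Pou2f1, Pou2f2, Pou3f1, Pou3f2, Pou3f3, Pou3f4, Pou4f1, Pou5f1 and Pou6f1, and they filled 10 rows of the 21801 in the table because Pou6f1 was listed under 2 identifiers. The labels put all 5 libraries in 1 group, NEC replicates 1 to 5, described as purified mouse cells and as neural progenitors, in a study of the developing neocortex, and name no treatment. They are silent on strain, genotype, age, the method of purification and the animals behind each replicate. A p-value here therefore reflects how far these samples differ among themselves, and that spread may be technical only. With no second group, the comparisons possible were of each gene with a fixed level of 1 FPKM (fragments per kilobase of transcript length and 1000000 mapped reads), of genes with each other within a library, and of libraries with each other.

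POU proteins bind DNA through a pair of linked domains, the POU-specific domain and the POU homeodomain, which together read the octamer sequence ATGCAAAT and its variants. The family is divided into classes by the sequence of these domains. Class III genes are expressed in neural progenitors and newborn neurons, where they often act together with Sox factors, while class II includes a factor found in almost every cell, class IV acts in sensory neurons, and class V is known for the maintenance of pluripotency. Genes of 5 of these classes are covered here.

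The 4 class III genes each consist of a single exon, and their coding sequences are closely alike, so it was asked first whether reads of 75 bases, the length sequenced, could tell them apart. The following are the 75 bases at which the 4 coding sequences resemble each other most, on mm10, with capitals marking bases that are identical in all 4 genes. The window lies in the coding exon at chr4:124658550-124658624 on the plus strand for Pou3f1, chr4:22487157-22487231 on the minus strand for Pou3f2, chr1:42698187-42698261 on the plus strand for Pou3f3 and chrX:110815131-110815205 on the plus strand for Pou3f4.
Pou3f1: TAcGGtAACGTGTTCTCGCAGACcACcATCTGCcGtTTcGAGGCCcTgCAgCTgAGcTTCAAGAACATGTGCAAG
Pou3f2: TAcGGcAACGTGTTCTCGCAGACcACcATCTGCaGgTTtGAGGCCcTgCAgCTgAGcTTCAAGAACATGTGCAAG
Pou3f3: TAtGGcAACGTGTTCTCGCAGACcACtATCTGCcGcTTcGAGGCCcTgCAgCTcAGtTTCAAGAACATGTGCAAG
Pou3f4: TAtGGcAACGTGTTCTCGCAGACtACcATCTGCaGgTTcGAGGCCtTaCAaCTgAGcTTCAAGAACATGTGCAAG

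Even in this window only 63 of the 75 positions were identical in all 4 genes, and pairs of genes differed at between 4 positions (Pou3f1 and Pou3f2) and 9 positions (Pou3f3 and Pou3f4). The longest run shared by any pair of these coding sequences was 38 bases, between Pou3f1 and Pou3f2. No stretch of 75 bases in the transcripts of Pou3f2, Pou3f3, Pou3f4, Pou4f1 or Pou6f1 occurred exactly in a transcript of any other gene of the GENCODE M21 annotation. That search covered exact matches only. Pou2f1 shared 16.2% of its distinct stretches with Cd247, a T-cell receptor subunit gene that overlaps it on the opposite strand, Pou5f1 shared 7.36% and Pou3f1 6.81% with an antisense gene each, and Pou2f2 shared 0.286% with 58 genes. No label says that the libraries kept strand, so reads from such overlaps could not be assigned to one gene or the other. Cd247 was listed at 0.81 ± 0.26 FPKM (SD, n = 5), a value subject to the same overlap. The part of the overlap in the Pou2f1 level was not tested. The second Pou6f1 identifier is not in the annotation used here, so it is given without a position. Sequence that it may share with the first Pou6f1 identifier could not be searched for.

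The neuroepithelial markers Sox2, Pax6, Nes, Prom1, Cdh2, Vim and Hes1 were all above 1 FPKM, 7 of 7, led by Prom1 (88.1 ± 10.96 FPKM) and Pax6 (64.6 ± 7.64) and lowest for Nes (3.55 ± 0.67). Markers of other cells were present too. Of 7 mesenchyme markers 7 were above 1 FPKM, with summed levels of 36.4 to 137 FPKM over the libraries, and so were 6 of 6 surface ectoderm markers (115 to 177 FPKM), 4 of 6 neuron markers (68.3 to 116 FPKM), 3 of 6 neural crest markers (18.2 to 43.6 FPKM) and 1 of 4 endothelial markers (4.89 to 7.78 FPKM). Over all genes tested 52.3% were above 1 FPKM, so the neural crest count was near that share and the endothelial count under it. The neuron markers Elavl3 (0.41 ± 0.13 FPKM) and Dcx (0.27 ± 0.17) were below 1 FPKM. In such bulk samples fewer cells of a type and less RNA per cell cannot be told apart. The spacing of the lowest values implied a total of 20600000 to 28400000 reads for a library. These totals were inferred from the FPKM values and are not counted reads. With them a single read on 2000 bases of transcript stood for 0.0196 to 0.0269 FPKM.

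The POU genes fell into 3 tiers. Pou2f1, Pou4f1 and Pou3f2 were called above 1 FPKM, the class III genes Pou3f4, Pou3f3 and Pou3f1 lay around 1 FPKM and were called neither way, and Pou5f1, Pou6f1 and Pou2f2 were called below it (limma's moderated test on log2(FPKM + 1), two-sided, Benjamini-Hochberg adjusted p under 0.05 over all 19706 genes tested). That made 3 rows above, against 52.3% of all genes tested, and 4 rows below, both Pou6f1 rows included, against 41.4% of all genes. Read against these shares, the counts are no result about the family as a group. At an unadjusted p under 0.05 the counts were also 3 and 4. By mean level the rows ranged from above 85.5% of the tested genes for Pou2f1 to above 14.9% for the second Pou6f1 row.

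**Figure D1:**
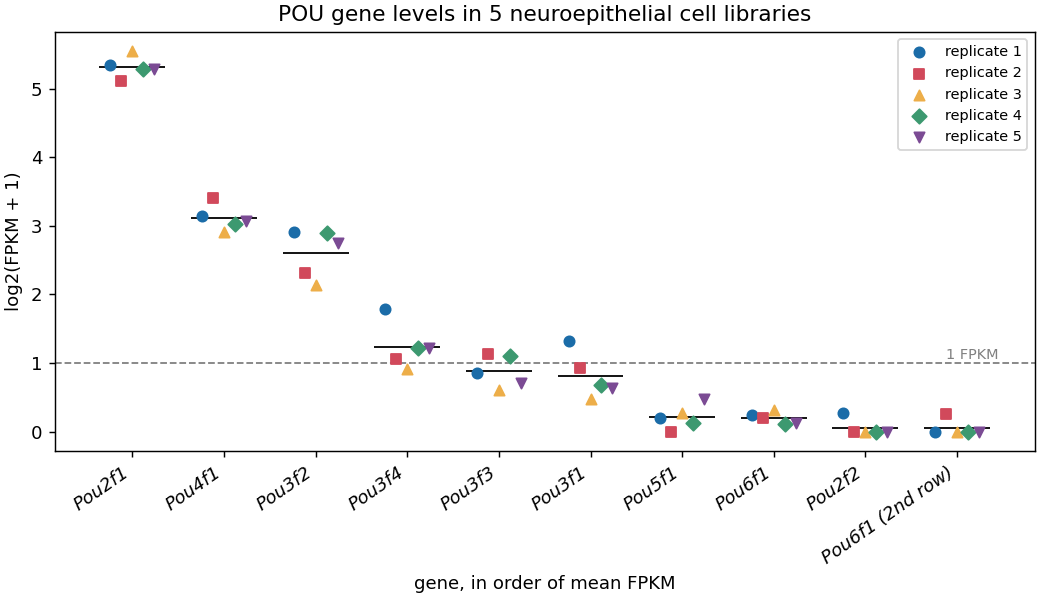
Levels of the 10 POU rows on the log2(FPKM + 1) scale (vertical axis) in order of mean FPKM (horizontal axis); each point is 1 library, black bars are means over 5 libraries and the dashed line is 1 FPKM. The 5 libraries of Pou2f1 lie between 33.5 and 45.8 FPKM, above all values of the other genes, and the Pou3f4, Pou3f3 and Pou3f1 points lie on both sides of the line.

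In class II, Pou2f1, the factor found in most cell types that acts on histone and small nuclear RNA promoters (ENSMUSG00000026565, chromosome 1, 165865154 to 166002678, minus strand), stood at 39.8, 33.5, 45.8, 38.0 and 38.2 FPKM in replicates 1 to 5. It was the highest POU gene in each library, with the lowest value in replicate 2 and the highest, 1.37 times as large, in replicate 3. Its mean of 39.1 ± 4.43 FPKM lay 4.32 over the 1 FPKM level on the log2(FPKM + 1) scale, with an SE of 0.06 (limma, adjusted p = 2.3e-10), and it made up 70.3% ± 5.14 of the summed FPKM of the 9 genes. Its SD of 0.16 on the log2 scale equalled the median SD of 0.16 over the 10983 genes whose mean reached 1 FPKM. Pou2f1 has 18 annotated transcripts with 3 separate promoters in RefSeq, and the gene-level FPKM does not show which were used.

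Pou2f2, the class II factor of B lymphocytes (ENSMUSG00000008496, chromosome 7, 25087344 to 25179726, minus strand), was listed at 0.209 FPKM in replicate 1, while the other 4 libraries had it at 0. It was called below 1 FPKM (log2 difference -0.95, SE 0.04, limma adjusted p = 2.1e-07). The leukocyte marker Ptprc followed the same pattern, listed at 0.274 FPKM in replicate 1 and at 0.0179 or less in the others, while Aif1, a macrophage marker, was at 0 in all 5 libraries and the 4 blood markers together summed to 0.0973 to 0.570 FPKM. Replicate 1 also had the most genes above 0 over the whole table, 18456 against 17336 or fewer in the others. Whether blood cells contributed to the Pou2f2 value was not tested. Pou2f1 was the higher of the pair in 5 of 5 libraries, with a log2 difference of 5.26 ± 0.19 (two-sided exact permutation test that flips signs, p = 0.0625, Benjamini-Hochberg adjusted over 7 pairs 0.0875). With 5 libraries 0.0625 is the smallest p this test can give, so no pair could pass 0.05.

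Of the partners of class II factors, the 5 subunits of SNAPc, the complex that Pou2f1 helps to recruit to small nuclear RNA genes, were all above 1 FPKM, 5 of 5, with a median of 25.2 FPKM against 1.79 FPKM over all genes tested. Of all genes tested 52.3% were above 1 FPKM. Snapc5 (45.6 ± 4.06 FPKM) and Snapc4 (29.9 ± 6.03) were the highest of the subunits and Snapc1 (8.73 ± 0.55) the lowest. Pou2af1, the B-cell coactivator of class II factors, was listed at 0.0366 FPKM in replicate 5 alone and otherwise at 0.

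In class III, Pou3f2 (ENSMUSG00000095139, chromosome 4, 22482780 to 22488366, minus strand), a factor of cortical progenitors and upper-layer neurons, was the highest. It stood at 6.55, 3.95, 3.41, 6.45 and 5.74 FPKM in replicates 1 to 5, so that replicates 1, 4 and 5 were high and replicates 2 and 3 low. Its mean of 5.22 ± 1.46 FPKM was 1.60 above 1 FPKM on the log2 scale (SE 0.14, limma adjusted p = 9.7e-06). Its SD of 0.36 on the log2 scale was the largest among the 4 of these 9 genes whose mean reached 1 FPKM.

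Pou3f4 (ENSMUSG00000056854, chromosome X, 110814280 to 110817207, plus strand), needed for the inner ear and expressed in the neural tube, stood at 2.45, 1.09, 0.889, 1.33 and 1.32 FPKM. Replicate 1 lay well above the other 4, and 4 of 5 libraries were above 1 FPKM. The mean of 1.42 ± 0.61 FPKM was called neither way (log2 difference 0.24, SE 0.13, 95% interval -0.06 to 0.54, limma adjusted p = 0.107). Without replicate 1 the difference was 0.10 (adjusted p = 0.262). With each library rescaled to a sum of 1000000 FPKM, which raised the median gene of mean 1 FPKM or more by 0.30 on the log2 scale, it was called above (log2 difference 0.44, limma adjusted p = 0.0255).

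Pou3f3 (ENSMUSG00000045515, chromosome 1, 42695768 to 42703176, plus strand), a close relative of Pou3f2 that acts with it in cortical neurogenesis, stood at 0.810, 1.19, 0.525, 1.15 and 0.635 FPKM. Replicates 2 and 4 were above 1 FPKM and the other 3 below. The mean of 0.86 ± 0.30 FPKM gave a log2 difference of -0.12 (SE 0.09, 95% interval -0.34 to 0.10, limma adjusted p = 0.248), which turned to 0.035 (adjusted p = 0.75) under the same rescaling.

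Pou3f1 (ENSMUSG00000090125, chromosome 4, 124656807 to 124660655, plus strand), known from myelinating Schwann cells and from early neural commitment, stood at 1.51, 0.910, 0.397, 0.602 and 0.554 FPKM, above 1 FPKM only in replicate 1. The mean of 0.79 ± 0.44 FPKM was called neither way (log2 difference -0.19, SE 0.12, limma adjusted p = 0.171). Without replicate 1 it was called below 1 FPKM (log2 difference -0.32, adjusted p = 0.0069).

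**Figure D2:**
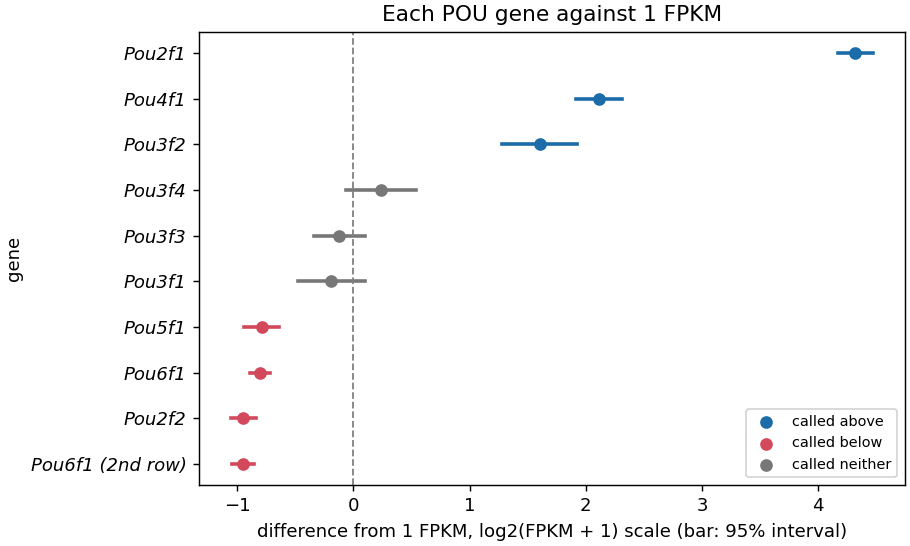
Difference of each POU row from 1 FPKM on the log2(FPKM + 1) scale (horizontal axis), with points for the mean over 5 libraries, bars for limma's 95% interval and colours for the call at an adjusted p under 0.05. The bars of Pou3f4, Pou3f3 and Pou3f1 cross 0, those of 3 rows lie to the right of it and those of 4 rows to the left.

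The reads behind the low class III genes were estimated from the steps in their values. Among transcript lengths of 900 to 4000 bases, all 5 values of Pou3f1 were within 0.015 of whole reads at a length of 3012 bases, which is close to the RefSeq span of 3010 bases and shorter than the 3849 bases of GENCODE M21. The length was picked from 3101 tried after the values had been seen. The implied reads were 97, 67, 23, 48 and 36 in replicates 1 to 5. For Pou3f3 a length of 3063 bases gave 53, 89, 31, 93 and 42 reads, and for Pou3f4 a length of 1182 bases gave 55, 28, 18, 37 and 30 reads. Exact Poisson 95% intervals cover counting error only and take each read as independent. By these, Pou3f1 was at 1.22 to 1.84 FPKM in replicate 1, its highest library, and 0.252 to 0.595 FPKM in replicate 3, its lowest. These intervals do not overlap, but PCR copies among the reads may make them too narrow. Whether the libraries differed by more than counting error is therefore not settled. For Pou3f4 the interval was 1.85 to 3.19 FPKM in replicate 1 and 0.724 to 1.57 FPKM in replicate 2, and it was 0.892 to 1.89 FPKM in replicate 5, which overlaps replicate 1. The lengths for Pou3f3 and Pou3f4 are shorter than those of GENCODE M21, 7409 and 2928 bases, and they match neither RefSeq span, 4443 and 4730 bases, so the reads and intervals of these genes are uncertain and the comparison of levels between them rests on the transcript models behind the FPKM values.

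Together the 4 class III genes summed to 11.3, 7.14, 5.22, 9.53 and 8.25 FPKM in replicates 1 to 5, highest in replicate 1 and lowest in replicate 3. That was 14.9% ± 3.83 of the summed FPKM of the 9 genes (n = 5), with a range of 9.003% to 19.0%. Within the class, Pou3f2 held 63.2% ± 6.24 of the sum, Pou3f4 16.8% ± 2.94, Pou3f3 10.7% ± 3.84 and Pou3f1 9.35% ± 3.42.

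**Figure D3:**
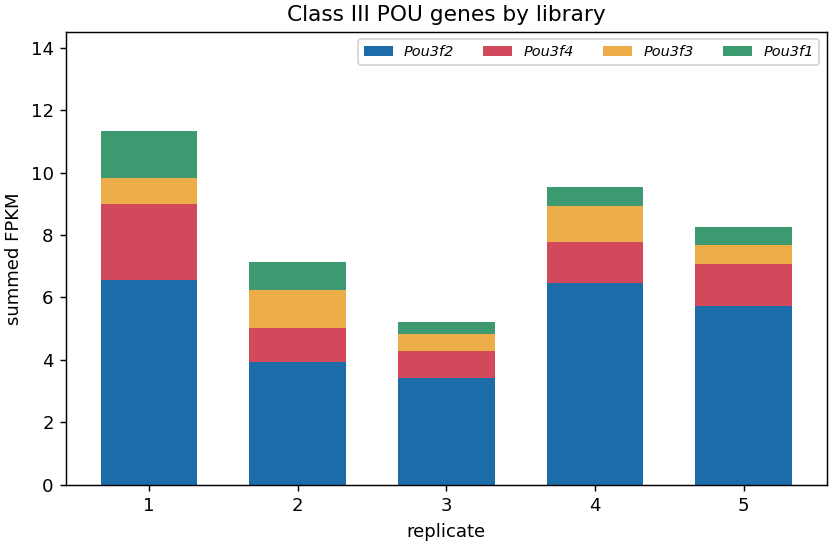
Summed FPKM of the 4 class III genes (vertical axis, starting at 0) in each replicate (horizontal axis), with 1 colour per gene. Pou3f2 makes up the largest part of every bar, and the sums run from 5.22 FPKM in replicate 3 to 11.3 FPKM in replicate 1.

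Pairs within the class were compared inside each library on the log2(FPKM + 1) scale. Pou3f2 exceeded Pou3f3 by 1.72 ± 0.37 and Pou3f4 by 1.36 ± 0.23 in 5 of 5 libraries, and Pou3f1 minus Pou3f2 was -1.79 ± 0.36 with Pou3f2 higher in 5 of 5. Pou3f4 was also higher than Pou3f1 in 5 of 5 libraries, Pou3f1 minus Pou3f4 being -0.43 ± 0.18. Each of these 4 pairs had the smallest possible two-sided exact sign-flip p = 0.0625 (adjusted 0.0875). The implied reads of Pou3f1 and Pou3f4 had the opposite order in each library, 97, 67, 23, 48 and 36 against 55, 28, 18, 37 and 30. The direction of that pair therefore rests on the lengths behind the FPKM, inferred as 3012 and 1182 bases, and is uncertain. Pou3f3 minus Pou3f4 was -0.36 ± 0.38, with Pou3f3 higher in 1 of 5 (exact p = 0.125, adjusted 0.146), and Pou3f1 minus Pou3f3 was -0.07 ± 0.33, with Pou3f1 higher in 1 of 5 (exact p = 0.625, adjusted 0.625). Of the 7 pairs tested, the Pou2f1 and Pou2f2 pair included, 5 thus had the same direction in each library, and none passed an adjusted p of 0.05, which this test cannot reach with 5 libraries.

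**Figure D4:**
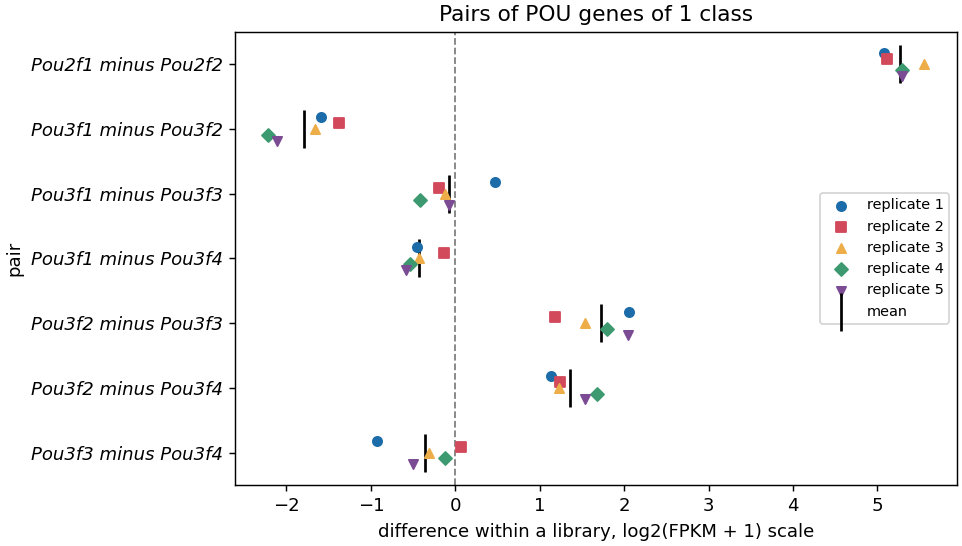
Within-library differences of log2(FPKM + 1) (horizontal axis) for the 7 pairs of POU genes of 1 class (vertical axis), with 1 point per library and a black tick for the mean. In 5 pairs all points lie on 1 side of 0, while Pou3f1 minus Pou3f3 and Pou3f3 minus Pou3f4 each have 1 point on the other side.

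Genes with described class III binding sites and Sox cofactors were measured beside them. Of 5 such target genes 3 were above 1 FPKM, near the 52.3% of all genes tested, and 1, Egr2, was below. The lipid-binding radial glia gene Fabp7 reached 23.6 ± 5.44 FPKM, the Notch ligand Dll1 at 5.69 ± 1.61 and the intermediate filament Nes at 3.55 ± 0.67, whereas Crh, a hypothalamic hormone, was listed at 0 in all 5 libraries. Of 7 Sox and POU cofactors 5 were above and 2 below, against 52.3% and 41.4% of all genes tested. The highest were Sox4 (21.7 ± 0.93 FPKM) and Sox9 (19.2 ± 4.12). Sox2, the progenitor factor that pairs with POU proteins on neighbouring sites, stood at 11.6 ± 1.72 FPKM, and the group C factor Sox11 was below the level at 0.29 ± 0.06.

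Pou4f1, the class IV factor of sensory neurons and of some midbrain and habenular neurons (ENSMUSG00000048349, chromosome 14, 104461676 to 104467999, minus strand), stood at 7.82, 9.66, 6.49, 7.19 and 7.38 FPKM in replicates 1 to 5. Replicate 2 was the highest and replicate 3 the lowest, 1.49 times apart. The mean of 7.71 ± 1.19 FPKM was 2.11 above 1 FPKM on the log2 scale (SE 0.08, limma adjusted p = 7.3e-08). It was the higher of Pou4f1 and Pou3f2 in 5 of 5 libraries, by 0.51 ± 0.41 on the log2 scale, although the ranges of their values over the libraries overlapped. Pou4f2 and Pou4f3, the other class IV genes, which act in retinal ganglion cells and inner ear hair cells, were at or near 0: Pou4f3 had a value above 0 in replicate 2 alone, 0.0177 FPKM, and Pou4f2 at 0.0583, 0.0127, 0, 0.0117 and 0.

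Of 9 genes of sensory neurons and their precursors 3 were above 1 FPKM and 6 below, with a median of 0.0354 FPKM, against 52.3% above and 41.4% below over all genes tested. Those above included the placode factor Eya1 (6.77 ± 1.42 FPKM) and the homeobox factor Isl1 (4.24 ± 0.59). Those below included Neurog1, Neurog2, Neurod1 and Neurod4, which drive neurogenesis, and the filament Prph. In the neural crest list 3 of 6 were above, near that share of all genes, and 2 below, led by Tfap2b (13.3 ± 3.82 FPKM) and Ets1 (11.3 ± 5.19), with Sox10 at 0.22 ± 0.12 and Foxd3 above 0 in replicate 5 alone, at 0.0199. The summed level of this list was highest in replicate 3 (43.6 FPKM), where Pou4f1 was lowest, and lowest in replicate 1 (18.2 FPKM). The part of these cells in the Pou4f1 level was not tested.

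In class V, Pou5f1, the pluripotency factor of the epiblast and germ cells (ENSMUSG00000024406, chromosome 17, 35506018 to 35510772, plus strand), had values of 0.145, 0, 0.205, 0.0889 and 0.384 FPKM in replicates 1 to 5. These values correspond to 0 to 10 reads on its longest annotated transcript of 1362 bases, so they rest on few reads. The mean of 0.16 ± 0.14 FPKM was below 1 FPKM (log2 difference -0.79, SE 0.06, limma adjusted p = 6.3e-06), and Pou5f1 was below Pou3f1, the next gene up in the order, in 5 of 5 libraries. Pou5f2, its testis-expressed relative, stood at 0.587, 0.128, 0.732, 0.0887 and 0.363 FPKM and was called below as well (log2 difference -0.56, limma adjusted p = 0.0012).

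Of 11 naive pluripotency genes 9 were below 1 FPKM and 2 above, with a median of 0.0670 FPKM, against 41.4% below and 52.3% above over all genes tested, and Prdm14, the lowest, had a value above 0 in replicate 1 alone, 0.0925 FPKM. Nanog, the partner of Pou5f1 in embryonic stem cells, was the highest at 5.22, 5.36, 2.76, 3.01 and 3.52 FPKM, a mean of 3.97 ± 1.24 (log2 difference 1.28, SE 0.14, limma adjusted p = 4.5e-05). All 5 Nanog values exceeded all 5 Pou5f1 values. Nanog shared 1.59% of its stretches of 75 bases exactly with the annotated pseudogene Nanog-ps1, and inexact copies were not searched for, so its level is uncertain. Tbx3, also expressed in many embryonic tissues, was the other gene above, at 2.37 ± 0.78 FPKM.

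Among 10 Pou5f1 and Sox2 partners of the epiblast 3 were above 1 FPKM, 6 below and 1 neither. Over all genes tested 52.3% were above and 41.4% below. The 3 above were the zinc finger factor Sall4 (111 ± 10.2 FPKM), the homeobox factor Otx2 (85.1 ± 12.9) and the DNA methylase Dnmt3b (16.3 ± 2.14). The signalling genes Fgf4, Fgf5, Nodal, Lefty2 and Tdgf1 were among the 6 below, and Tdgf1 was the lowest, at 0.0254 FPKM or less in each library. The orphan receptors that bind and repress the Pou5f1 gene were above the level, 3 of 3 against 52.3% of all genes tested. They were Nr2f2 (37.1 ± 5.84 FPKM), Nr6a1 (34.2 ± 3.39) and Nr2f1 (8.94 ± 1.44). Of 7 primordial germ cell markers 1 was above and 4 below, against 52.3% and 41.4% of all genes tested. Tfap2c (1.57 ± 0.26 FPKM) and Dnd1 (1.23 ± 0.18) were the highest, with Ddx4 at 0.20 ± 0.06 and Dppa3 listed at 0.179, 0, 0, 0.112 and 0 FPKM. Tfap2c is also a surface ectoderm gene.

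In class VI, Pou6f1 (ENSMUSG00000009739, chromosome 15, 100575318 to 100599984, minus strand), a factor of the later brain, stood at 0.183, 0.149, 0.242, 0.0764 and 0.0877 FPKM. Replicate 3 was the highest and replicates 4 and 5 the lowest. The mean of 0.15 ± 0.07 FPKM was below 1 FPKM (log2 difference -0.80, SE 0.04, limma adjusted p = 1.5e-07). The second Pou6f1 row (ENSMUSG00000098598) had a value above 0 in replicate 2 alone, 0.193 FPKM.

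Among POU genes outside these 9, Pou1f1, the pituitary factor of class I, was called neither way, with 2.24 FPKM in replicate 1 and 0.792, 0.844, 0.466 and 0.688 in the others. Pou2f3, a factor of epidermal and tuft cells, stood at 0.0331 ± 0.0167 FPKM and was called below 1 FPKM.

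In the order of mean FPKM, some neighbours were separated by more than their spread and others were not. The ranges of Pou2f1 and Pou4f1 over the libraries did not overlap, nor did those of Pou3f2 and Pou3f4 or of Pou3f1 and Pou5f1. Those of Pou4f1 and Pou3f2 did. For Pou3f1 and Pou5f1 the gap was narrow, with a lowest Pou3f1 value of 0.397 FPKM and a highest Pou5f1 value of 0.384. A single read on Pou5f1 counted for more than that gap, 0.0303 to 0.0417 FPKM. Pou3f4 and Pou3f3 (difference 0.36 ± 0.38 on the log2 scale) and Pou3f3 and Pou3f1 (0.07 ± 0.33) differed by no more than their spread, with the first of each pair higher in 4 of 5 libraries. Pou5f1 and Pou6f1 differed by 0.01 ± 0.20, with Pou5f1 higher in 2 of 5, and their order is not resolved. Because the order was taken from the values, these are descriptions without a test.

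Some of the POU genes had their extremes in the same library. The share of all genes with an extreme there was not counted, so the counts that follow are no result about the family. Replicate 3 had the fewest genes above 0, 16275, and replicate 1 the most, 18456. In replicate 3 the implied reads of Pou3f1, Pou3f3 and Pou3f4 were 23, 31 and 18. All 4 class III genes and Pou4f1 had their lowest value in replicate 3, and 3 of the 4 class III genes, Pou3f1, Pou3f2 and Pou3f4, had their highest in replicate 1. Relative to the gene's own mean, Pou3f4 deviated by 0.55 and Pou3f1 by 0.52 on the log2 scale in replicate 1, and Pou3f2 by -0.46 in replicate 3. Pou2f1 went the other way, with its highest value in replicate 3 (0.23). The median deviation of the neuroepithelial markers was 0.18 in replicate 1 and -0.22 in replicate 3, and that of the neuron markers 0.37 and -0.32. For the mesenchyme markers it was -0.89 and 0.54, and for the neural crest markers -0.59 and 0.50. The part of these cell types in the POU values was not tested.

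**Figure D5:**
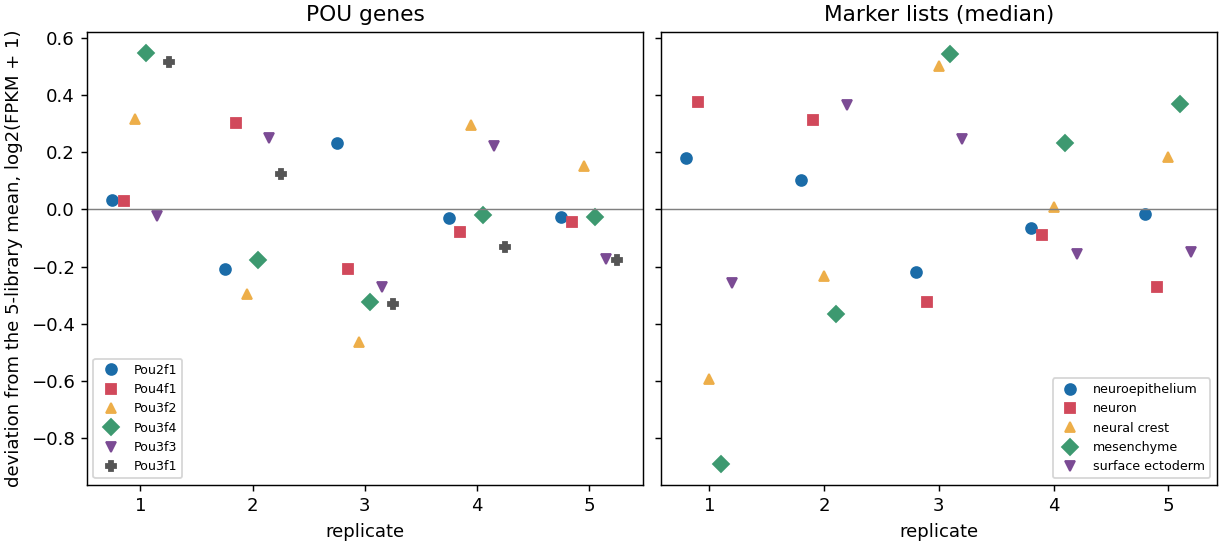
Deviation of each library from the 5-library mean on the log2(FPKM + 1) scale (vertical axis) by replicate (horizontal axis), for 6 POU genes on the left and as the median over the markers with a mean of at least 1 FPKM in 5 lists on the right. In replicate 3 the class III genes and Pou4f1 lie below 0, as do the neuroepithelium and neuron medians, while the mesenchyme and neural crest medians are at 0.54 and 0.50.

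The genes whose deviations over the 5 libraries were closest to those of Pou3f2, the most variable of the 4 among these 9 genes whose mean reached 1 FPKM, included Pon3 and Dlgap2, among 10982 genes compared. Their root mean square differences from Pou3f2 were 0.05 and 0.07 on the log2 scale. Both were low, at 1.75 ± 0.73 and 1.05 ± 0.41 FPKM. This likeness describes 5 values per gene.

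Promoter sequence was available in RefSeq (GRCm38.p6, the same build as mm10) for 8 of the 9 genes, at 11 start sites, as windows from 250 bases before to 50 after the start. The octamer ATGCAAAT, searched on both strands, occurred in none of the 11 windows and in 1.74% of all 32817 windows of the table. No match says only that these letters are not in these windows. The Pou4f1 window was the richest in G and C, at 78.3%, with an observed over expected CpG ratio of 1.24, against medians of 52.7% and 0.383 over all windows. The windows of 1 of the 3 Pou2f1 starts and of Pou3f2 stood at 69.7% and 67.7% G and C, with ratios of 1.01 and 0.824, whereas the first Pou5f1 window had 62.7% and 0.374. Over their longest transcripts Pou3f1 had 63.9% G and C and Pou3f2 44.4%, against a median of 49.1% over 21901 protein-coding genes.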

How the data were processed

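Per the labels' protocols, total RNA was made into full-length cDNA with a poly-dT primer and template switching, amplified, sheared and sequenced as single-end reads of 75 bases. The protocols describe no molecular identifiers, which leaves PCR copies among the reads. The authors deposited 1 table of FPKM, 1 value per gene and library, for the 5 NEC libraries. Cuffdiff 2.2.1, TopHat2 2.0.11, cutadapt, CASAVA 1.8 and the mm10 build appear in the submitters' processing notes, with no role or order. The sources used here do not give filters or the annotation release. Of the 21801 identifiers, 21537 matched GENCODE M21, which gave positions and transcripts.

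A count model was not applied to FPKM. In R 4.3.3, limma 3.58.1 fitted an intercept to log2(FPKM + 1), with a variance trend, for the 19706 genes above 0 in at least 1 library and tested it against 1 FPKM. On this scale differences of low genes are understated. For pairs, the signs of the within-library differences were flipped in an exact permutation test, two-sided. The fit was also run on simulated normal values, with an outcome not reported here. The genes scored there were set at or near 1 FPKM, so that run does not cover rows at 0 in most libraries. The total behind the FPKM came from single-transcript genes longer than 800 bases with values under 0.15 FPKM, after taking 200 bases off each length; the offset and the lengths tried for the class III genes were chosen after the data had been seen. Exact Poisson intervals are at the 95% level.

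The 9 genes and the lists were chosen with earlier results of these data known. Named genes are the members, the 2 highest and the lowest of each list and the 3 genes most like the most variable member; any further gene was picked with its values in view. Some genes that this rule names are not reported here. Alternatives were other pseudocounts, scalings, filters, levels and variance settings and leaving out each replicate, and summing both Pou6f1 rows was added after seeing the data.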

Additional observations from a re-analysis of the deposited data

Results flagged for a closer look

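In 6 of the 24 sets of 5 values examined (10 POU rows, other POU genes, 7 pair differences and the class III share), 1 library lay apart from the others, with its gap to the nearest value above 0.71 of the whole range. Chance gives about 1 in 20 such sets if values are normally distributed. That was not checked, and gene values were examined as FPKM rather than on the log2 scale. The pair differences and the share also reuse the gene values, so the sets are not independent and the rate is a rough guide only. It does not apply to the 3 sets with 4 values at 0 (Pou2f2, the second Pou6f1 row and Pou4f3), where the gap is the whole range by construction.

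Replicate 1 stood high in 4 of these sets. It also had the most genes above 0 over the whole table, 18456 against 16275 to 17336 in the other libraries. The total inferred from its FPKM values was 22800000 reads, with 20600000 to 28400000 over the libraries, which is not a counted depth. Whether depth or the number of genes above 0 bears on the POU values was not tested. Pou3f4 was at 2.45 FPKM there against 1.33 FPKM in the next library. Pou1f1 was at 2.24 FPKM against 0.844, Pou2f2 was listed at 0.209 against 0 in each other library, and Pou4f2 was listed at 0.0583 against 0.0127. Replicate 2 stood high in the other sets, with the second Pou6f1 row listed at 0.193 FPKM and Pou4f3 at 0.0177, both at 0 in each other library.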

How the results depend on the processing

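Pou2f1, Pou4f1 and Pou3f2 were called above the level tested, and Pou5f1 and the first Pou6f1 row below it, under all 16 alternatives. The count above was 5 against a level of 0.5 FPKM, with Pou3f3 at a log2 difference of 0.30 (limma adjusted p = 0.0167) and Pou3f4 at 0.66 (adjusted p = 0.0016) joining, while Pou3f1 was at 0.23 and not called. The count below was 7 against a level of 2 FPKM, where Pou3f4 was at -0.34, and 2 when a mean of at least 0.1 FPKM was required, since that filter leaves Pou2f2 and the second Pou6f1 row untested. With libraries rescaled to a common sum, Pou3f3 was at 0.035 and not called. Leaving out each replicate in turn gave counts of 3 to 3 above and 3 to 4 below, 5 to 6 pairs with 1 direction in each library, and a class III share of 13.9% to 16.4%. Pou3f1 minus Pou3f3 ran from -0.20 without replicate 1 to 0.019 without replicate 4, a change of sign. No paired analysis was possible because the study has 1 group, so replicate numbers pair no samples across groups; genes were paired only within a library. Depth limits the lowest values, several of which come down to 1 or a few reads.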
